A study of Mus musculus with 6 samples.

Results

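Rab GTPases are small proteins of the Ras superfamily that sit on the membranes of vesicles and organelles and switch between a GDP-bound and a GTP-bound form. In the GTP form they recruit motors, tethers and other effectors, and each compartment of the secretory, endocytic and lysosomal routes carries its own set of Rabs. Muscle fibers use this traffic to move the glucose transporter GLUT4 to the cell surface, to renew surface receptors and to deliver material to lysosomes. TFEB is a transcription factor of lysosomal and autophagy genes that binds the CLEAR element, a short DNA motif with CACGTG at its core.

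The expression of the Rab genes was measured here in muscle without TFEB. Every gene whose single symbol is Rab, a number and at most 2 further letters was taken, which gave 53 names. Among them, Rab3ip encodes an exchange factor, Rab5if encodes a Rab5-interacting factor and Rab26os is an opposite-strand RNA, so 50 Rab GTPase genes of the 12393 measured genes remained. The log2 fold change of TFEB KO over WT was -0.03 for Rab3ip, -0.02 for Rab5if and 0.02 for Rab26os, and all of them overlapped between the groups. Each gene was read from its brightest probe set, by the mean over 6 arrays, and the other 45 Rab probe sets were examined separately.

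The arrays held total RNA of muscle from 3 TFEB KO and 3 WT mice of the C57BL/6 strain. All mice were 1 month old, and each was measured on an Affymetrix array of its own. The TFEB KO mice carried a floxed Tcfeb gene and the MLC1f-Cre transgene, which is active in skeletal muscle fibers, so that the other cells of the tissue kept the gene. The WT mice are described only as wild-type. The values are RMA values on the log2 scale, on which a difference of 1 is a doubling.

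The deleted gene was checked first. Tfeb had log2 values of 7.10, 7.23 and 7.04 on the TFEB KO arrays, against 8.61, 8.55 and 8.96 on the WT arrays. It fell 2.99-fold (log2 fold change -1.58, SE 0.13, adjusted p = 0.00787, limma). An exact permutation test over the 6 arrays gave its smallest possible two-sided p of 0.10. The 12 myofiber markers were bright on every array, and the log2 of their summed level was 17.92 to 17.96 in TFEB KO and 17.95 to 17.98 in WT muscle. The brightest genes dominate this sum. The mean log2 value of the same markers was 14.03 to 14.11 in TFEB KO and 14.20 to 14.24 in WT, with 0 called, 4 separated downward and 1 upward. Myh7, the myosin of slow fibers, had the largest difference of these markers (log2 fold change -1.40, adjusted p = 0.0688). Over all genes, 12.9% were separated downward and 10.8% upward. At an adjusted p under 0.05 (limma), 0.871% of all genes were called higher and 0.702% lower. Other cell types differed between the groups. The summed level of 20 macrophage markers was 12.89 to 13.57 in TFEB KO and 11.45 to 12.22 in WT, with 9 called higher. The summed level of 14 endothelial markers was 11.21 to 11.42 in TFEB KO and 11.83 to 11.99 in WT, with 7 called lower. The summed level of 9 tendon and cartilage markers was 11.59 to 11.98 in TFEB KO and 12.26 to 12.45 in WT, with 4 called lower (median log2 fold change -0.92), and 2 of 9 smooth muscle and pericyte markers were called lower. In whole tissue, a change in the number of cells of a type and a change in RNA per cell cannot be told apart.

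Some arrays stood apart more often than others. TFEB KO 1 was the array farthest from the mean of its group for 21 of the 50 Rab genes (42%, against 40.5% of all genes), and WT 3 for 20 of them (40%, against 40.9% of all genes). Many small Rab values moved with a single array. When each array was left out in turn, the log2 fold change ranged from 0.05 to 0.30 for Rab27a, from 0.09 to 0.36 for Rab11a, from 0.12 to 0.29 for Rab5a, from 0.03 to 0.14 for Rab10, from -0.14 to -0.02 for Rab1a, from 0.06 to 0.18 for Rab2a and from -0.08 to -0.01 for Rab14. The lowest values of Rab27a, Rab11a, Rab10 and Rab2a were those without WT 1, that of Rab5a without TFEB KO 3, and the value of Rab1a nearest to 0 was that without TFEB KO 3. Rab13 was at 0.12 without WT 1, Rab9 at 0.13 without TFEB KO 3, Rab6a at 0.26 without WT 3, and Rab8a at 0.02 without WT 1.

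No Rab gene passed the test. Of the 50 genes, 0 were higher and 0 were lower in TFEB KO muscle at an adjusted p under 0.05 (limma, Benjamini-Hochberg over all 22626 probe sets), against 0.871% of all genes called higher, 0.702% called lower and 1.57% in either direction. At an unadjusted p under 0.05 there were 1 higher and 4 lower Rab genes, or 10%, against 17.1% of all genes. The 3 TFEB KO arrays lay entirely above the 3 WT arrays for 3 Rab genes and entirely below them for 8, together 22%, while 23.8% of all genes were separated in this way. The share of separated genes was close to that of all genes, and which of these shares was the larger depended on the choice of probe set and on single arrays (24% against 23.8% when a gene's probe sets were averaged, 46% against 36.4% without WT 3, 24% against 30.4% without WT 1).

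The changes were small in either direction. Exactly 25 Rab genes had a log2 fold change above 0 and 25 below 0. Their median was -0.01, the same as for all genes to 2 decimals (-0.01), and the central range from the lower to the upper quartile was -0.13 to 0.15. The extremes were Rab40b at 0.47 (1.39-fold higher) and Rab6b at -0.37 (1.29-fold lower). No Rab gene differed by 1.5-fold or more, while 2.86% of all genes did. The median size of a change, without its sign, was 0.14 for the Rab genes and 0.12 for all genes.

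The precision of the arrays limits how small a change could be seen. The median SE of a Rab log2 fold change was 0.11, with a range of 0.08 to 0.27. For 43 of the 50 genes (86%) the whole 95% interval lay within 1.5-fold on either side of no change, a property shared by 83.6% of all genes. The intervals of Rab4a, Rab6b, Rab7b, Rab8b, Rab32, Rab33b and Rab40b reached beyond 1.5-fold, so for these genes a change of that size was not outside the interval.

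**Figure D1:**
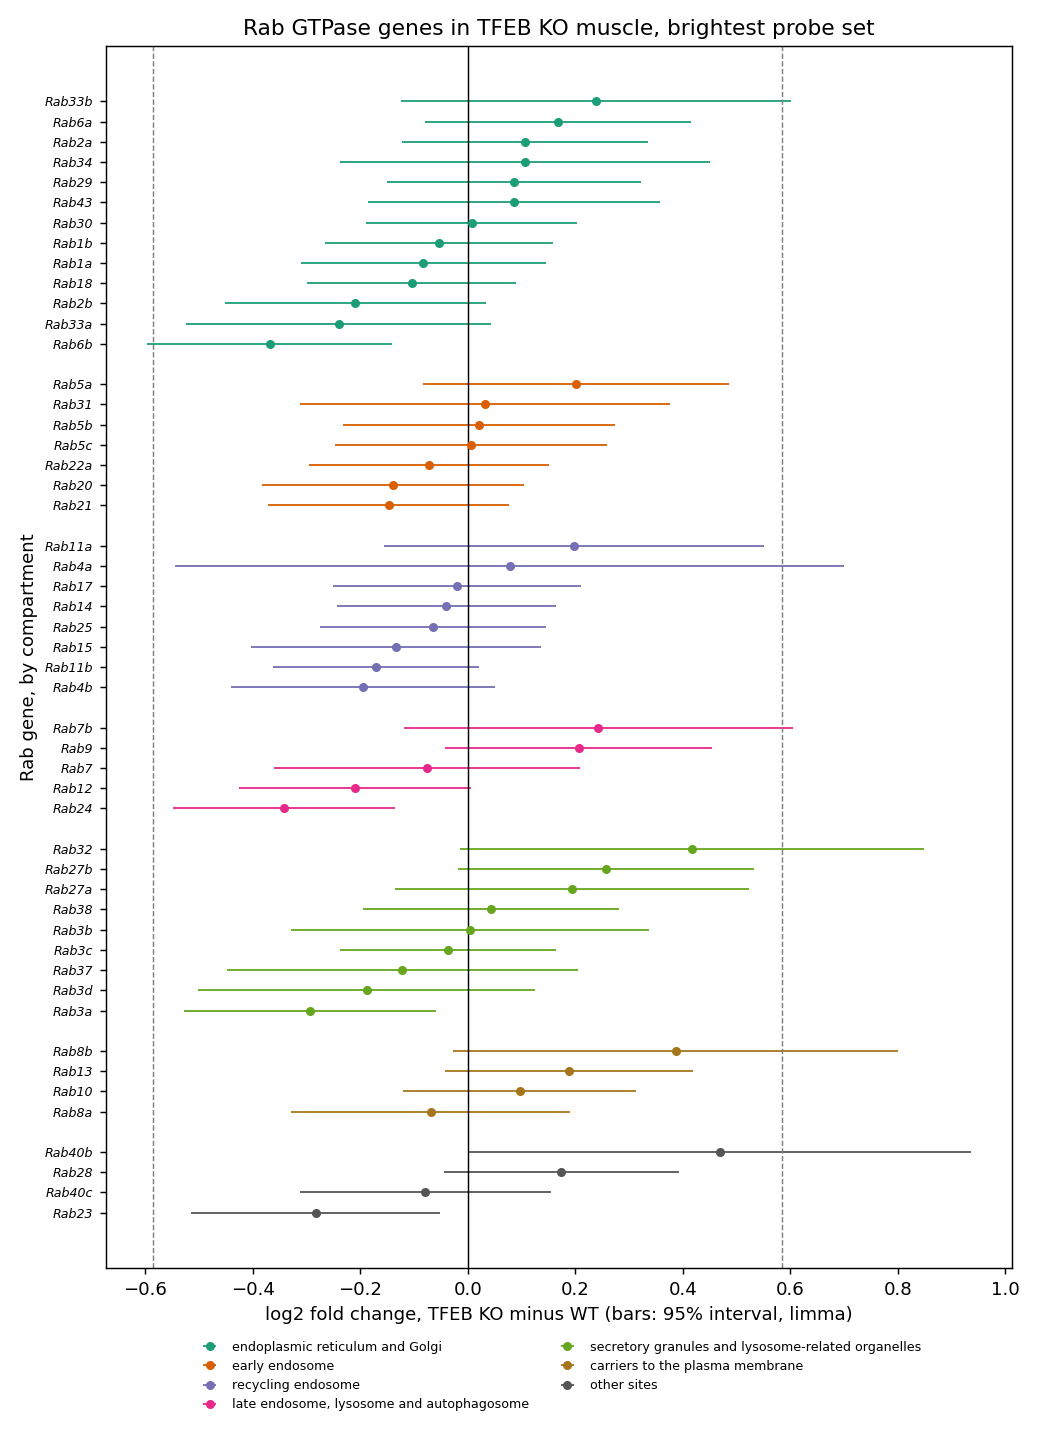
Log2 fold change of TFEB KO over WT for each of the 50 Rab genes (brightest probe set), with its 95% interval from limma as a bar, grouped by compartment along the vertical axis. The dashed lines mark 1.5-fold, which 43 intervals do not reach, and the 4 genes with intervals entirely below 0 are Rab24, Rab6b, Rab3a and Rab23.

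**Figure D2:**
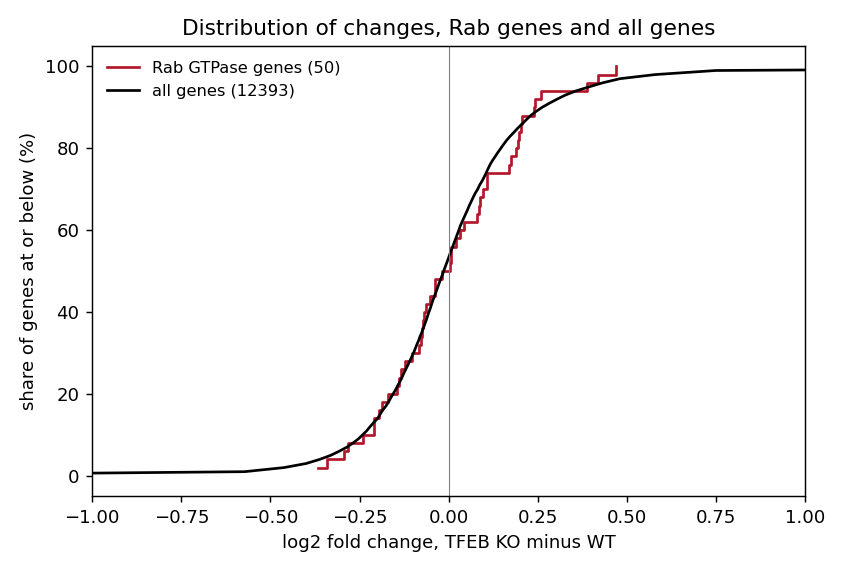
Cumulative share of genes (percent, vertical axis) at or below a given log2 fold change of TFEB KO over WT (horizontal axis, drawn from -1 to 1), for the 50 Rab genes and for all 12393 genes. Both curves cross their midpoint at -0.01, and the Rab curve runs from -0.37 to 0.47.

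The sequence that TFEB binds was looked for in the Rab promoters. RefSeq (mouse build GRCm38.p6) gave a promoter window, from 250 bases before to 50 bases after the transcript start, for 42 of the 50 Rab genes, and the others were Rab2a, Rab4a, Rab7b, Rab18, Rab27b, Rab30, Rab37 and Rab38. CACGTG, which reads the same on both strands, was present for 6 of the 42 genes, or 14.3%. The share was 10.8% over the 9882 measured genes with a window and 8.09% over all 27025 genes in the table. With a T before the motif on either strand (TCACGTG, a longer form that contains CACGTG), 4 of the 42 genes (9.52%) had a match, against 6.1% of the measured genes. Each match is shown with its surroundings, because it holds the core of the element that TFEB binds. Each window is 30 bases long, runs 5′ to 3′ along the gene's strand and has CACGTG in capitals.

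Rab5a, motif 235 bases before the start, chr17:53478987-53479016, + strand: aattggagaagaCACGTGacgcaaccccac
Rab5a, motif 95 bases before the start, chr17:53479127-53479156, + strand: acccggggatgtCACGTGacttcggccccg
Rab20, motif 46 bases before the start, chr8:11478669-11478698, - strand: cggccgggcaccCACGTGgtcgcagggctg
Rab21, motif 30 bases before the start, chr10:115315604-115315633, - strand: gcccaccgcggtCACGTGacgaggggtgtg
Rab23, motif 218 bases before the start, chr1:33719666-33719695, + strand: cttcagtgctacCACGTGagtctcaggtgg
Rab24, motif from base 3 of the transcript, chr13:55321961-55321990, - strand: cggcgcccgcgtCACGTGaccgggcgtccc
Rab27a, motif 246 bases before the start, chr9:73063898-73063927, + strand: cttgCACGTGctcctccgtctgtctgaacc

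Rab5a was the only Rab gene with 2 matches. The upstream site in Rab5a lies in a different context from the downstream one, which has the 10-base palindrome GTCACGTGAC that is also found in Rab21 and Rab24. The 6 genes with the motif had both signs. Their log2 fold changes were 0.20 for Rab5a, 0.19 for Rab27a, -0.14 for Rab20, -0.15 for Rab21, -0.28 for Rab23 and -0.34 for Rab24, and none passed the test. Among the 3 genes that share the palindrome, Rab5a was higher and Rab21 and Rab24 were lower on the brightest probe set. Only Rab24 of these separated the groups, and the dimmer probe set of Rab21 had the opposite sign (0.06). Rab27a was below the 40th percentile of brightness, and its other probe sets were at -0.12 and 0.003. A match is a description of the letters and not evidence of binding.

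For the 3 Rab genes with the smallest p, the 250 bases before the transcript start are shown in full, since they were the members nearest to a call. Rab24 carried its motif just after these bases, and the windows of Rab6b and Rab3a held none, including a second window listed for Rab3a. The G and C content of the stretches was 68.8% for Rab24, 80.8% for Rab6b and 58.8% for Rab3a.

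Rab24, chr13:55321981-55322230, - strand: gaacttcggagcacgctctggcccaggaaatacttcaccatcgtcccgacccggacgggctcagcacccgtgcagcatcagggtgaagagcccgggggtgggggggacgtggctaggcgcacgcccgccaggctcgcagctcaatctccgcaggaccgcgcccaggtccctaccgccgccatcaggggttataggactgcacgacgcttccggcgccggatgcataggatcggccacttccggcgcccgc
Rab6b, chr9:103111824-103112073, + strand: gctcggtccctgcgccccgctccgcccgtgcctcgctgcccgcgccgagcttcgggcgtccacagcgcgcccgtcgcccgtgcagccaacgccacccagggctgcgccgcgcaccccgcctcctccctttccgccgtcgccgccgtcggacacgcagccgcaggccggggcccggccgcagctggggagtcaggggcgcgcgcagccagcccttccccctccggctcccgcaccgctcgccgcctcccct
Rab3a, chr8:70754453-70754702, + strand: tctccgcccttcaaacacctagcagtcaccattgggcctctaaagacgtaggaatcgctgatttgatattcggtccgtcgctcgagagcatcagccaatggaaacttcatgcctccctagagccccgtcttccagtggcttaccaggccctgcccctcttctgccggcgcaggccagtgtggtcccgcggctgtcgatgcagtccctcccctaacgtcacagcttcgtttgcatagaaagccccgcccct

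Late endosomes, lysosomes and autophagosomes are the compartments closest to the known targets of TFEB, and 5 Rab genes were assigned to them. Their median log2 fold change was -0.08, with 2 above and 3 below 0. It was 0.04 without TFEB KO 1 and -0.17 without TFEB KO 2, so its sign rested on a single array. Rab24, which is linked to autophagosomes and their clearance, had log2 values of 9.06, 9.05 and 9.07 on the TFEB KO arrays, against 9.44, 9.29 and 9.47 on the WT arrays. The 3 TFEB KO values were nearly identical and all lay below WT. The difference was 1.27-fold (log2 fold change -0.34, SE 0.09, 95% interval -0.55 to -0.13), with an adjusted p of 0.105, the smallest of any brightest Rab probe set. A dimmer probe set of Rab24 separated the groups as well, at 8.30, 8.41 and 8.45 in TFEB KO and 8.53, 8.62 and 8.66 in WT (log2 fold change -0.21, adjusted p = 0.283). When single arrays were left out, the log2 fold change of Rab24 stayed between -0.40 and -0.31.

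Rab7, the GTPase of late endosomes that guides their fusion with lysosomes, had values of 11.47, 11.90 and 11.73 in TFEB KO and 11.87, 11.73 and 11.72 in WT muscle. The groups overlapped, with TFEB KO 1 as the lowest array, and the log2 fold change was -0.08 (SE 0.12, adjusted p = 0.815). Without TFEB KO 1 it was 0.04. Its dimmer probe set read 10.09, 10.27 and 10.18 in TFEB KO and 10.49, 10.28 and 10.32 in WT, with no overlap (log2 fold change -0.18, adjusted p = 0.396). The 2 probe sets of Rab7 therefore differed in separation but not in sign.

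Rab12, which acts in the traffic of membrane proteins from recycling endosomes to lysosomes, had values of 11.21, 11.38 and 11.43 in TFEB KO and 11.60, 11.52 and 11.53 in WT muscle. All TFEB KO arrays were lower, by 1.16-fold (log2 fold change -0.21, SE 0.09, adjusted p = 0.303). Rab9, which serves the return of mannose 6-phosphate receptors from late endosomes to the Golgi, had a log2 fold change in the other direction, 0.21 (SE 0.11, adjusted p = 0.383), with overlapping groups. Rab7b, which also works between late endosomes and the Golgi, read 7.49, 7.14 and 6.93 in TFEB KO and 7.13, 6.94 and 6.76 in WT. Its log2 fold change was 0.24 with all arrays and 0.09 without TFEB KO 1, the array with the highest summed levels of macrophage (13.57), fibroblast (14.86) and adipocyte markers (14.69). The part of these cells in the value was not tested.

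The 7 Rab genes of early endosomes showed the smallest changes of any compartment by median size (0.07), and none separated the groups. Rab5 is the GTPase of early endosomes that drives their fusion, and its 3 forms differed little. Rab5a read 10.39, 10.25 and 10.58 in TFEB KO and 10.07, 10.16 and 10.39 in WT muscle, with a log2 fold change of 0.20 (SE 0.12, adjusted p = 0.462). Rab5b was at 0.02 and Rab5c at 0.01, both with an SE of 0.11. The sign of both depended on single arrays, so that no direction can be given for them. The other log2 fold changes were 0.03 for Rab31, -0.07 for Rab22a, -0.14 for Rab20 and -0.15 for Rab21. Rab20 was among the 10 Rab genes with a mean below the 40th percentile of all probe sets (log2 value 5.77), where arrays measure poorly.

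Of 8 Rab genes of recycling endosomes, 6 were below 0 and the median log2 fold change was -0.05. Rab11b, which returns cargo from recycling endosomes to the surface, had values of 9.75, 9.83 and 9.75 in TFEB KO and 9.96, 9.94 and 9.94 in WT muscle. It was the only gene of the group without overlap. The difference was 1.13-fold (log2 fold change -0.17, SE 0.08, adjusted p = 0.349). Its close relative Rab11a had a log2 fold change of 0.20 on the brightest probe set, with overlapping groups, and 0.14 on a second probe set whose TFEB KO arrays (10.09, 9.91 and 9.94) all lay above the WT arrays (9.78, 9.86 and 9.87). Neither probe set of Rab11a passed the test (adjusted p = 0.57 and 0.48).

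Rab4a, which acts in fast recycling from early endosomes, was the least precise Rab gene, with an SE of 0.27. It read 6.99, 8.05 and 8.0 on the TFEB KO arrays and 7.48, 7.89 and 7.43 on the WT arrays. TFEB KO 1 was the lowest of all arrays, and the other TFEB KO arrays were the highest. The second probe set repeated this order, with 5.59 for TFEB KO 1, 6.85 for each of the other TFEB KO arrays and 6.41, 6.79 and 6.20 for WT. The log2 fold change was 0.08 with all arrays and 0.42 without TFEB KO 1 (adjusted p = 0.209). Rab4b, the other form, was at -0.20 (SE 0.11) with overlapping groups.

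Rab14, which works between the Golgi, endosomes and GLUT4 vesicles, had 6 probe sets with log2 fold changes from -0.07 to 0.21, and its brightest was at -0.04 (SE 0.09). The remaining members of the group were Rab15 at -0.13, Rab25 at -0.06 and Rab17 at -0.02. Rab17 and Rab25 are known mainly from epithelial cells.

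The endoplasmic reticulum and the Golgi held the largest group, with 13 genes, 7 above and 6 below 0 and a median log2 fold change of 0.01. Rab1a, which is required for transport from the endoplasmic reticulum to the Golgi, had values of 11.32, 11.20 and 11.08 in TFEB KO and 11.37, 11.21 and 11.26 in WT muscle (log2 fold change -0.08, SE 0.10). Rab2a, which acts in traffic at the Golgi and in the delivery of material to lysosomes, read 12.30, 12.44 and 12.43 in TFEB KO and 12.19, 12.24 and 12.42 in WT (log2 fold change 0.11, SE 0.10). The groups overlapped for both genes.

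Rab6 directs traffic at the Golgi, and its 2 forms had opposite signs. Rab6a, the form found in most tissues, was at 0.17 (SE 0.11, adjusted p = 0.484). Rab6b, known mainly from neurons, read 6.49, 6.55 and 6.74 in TFEB KO and 6.94, 6.92 and 7.03 in WT muscle, with no overlap. This was the most negative Rab log2 fold change (-0.37, SE 0.10, 95% interval -0.60 to -0.14, adjusted p = 0.111). Of 8 neuron markers, 6 were below the 40th percentile of brightness and 0 were called, and their summed level was 7.78 to 7.90 in TFEB KO and 7.62 to 7.90 in WT. Of 8 Schwann cell and myelin markers, 3 were below the 40th percentile. Among these 8 markers, 1 was called lower (0.702% of all genes) and 3 were separated downward (12.9% of all genes). Their summed level was 10.68 to 11.03 in TFEB KO and 11.42 to 11.72 in WT. Their part in the value of Rab6b was not tested.

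Rab18, a GTPase of the endoplasmic reticulum and of lipid droplets, had 10.52, 10.55 and 10.44 in TFEB KO and 10.62, 10.58 and 10.64 in WT muscle. Its TFEB KO arrays were all lower, with a log2 fold change of -0.10 on the brightest probe set (adjusted p = 0.59) and -0.30 on the dimmer one (adjusted p = 0.171). Rab33a was also separated (-0.24, SE 0.12), at a mean below the 40th percentile. Its relative Rab33b, a Golgi Rab that binds the autophagy protein ATG16L1, had a value of 0.24 (SE 0.16) with overlapping groups. The other genes of these compartments overlapped, with Rab34 at 0.11, Rab29 at 0.09, Rab43 at 0.09, Rab30 at 0.01, Rab1b at -0.05 and Rab2b at -0.21.

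Secretory granules and lysosome-related organelles had 9 Rab genes, of which 7 were below the 40th percentile of brightness. Rab3a, the GTPase of synaptic vesicles and regulated secretion, was one of the brighter members. It read 7.87, 7.98 and 7.73 in TFEB KO and 8.23, 8.19 and 8.04 in WT muscle, and the groups did not overlap. The difference was 1.23-fold (log2 fold change -0.29, SE 0.10, 95% interval -0.53 to -0.06, adjusted p = 0.196). Rab3d was at -0.19, Rab3c at -0.04 and Rab3b at 0.00, all with overlapping groups.

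Rab32, which acts in the formation of lysosome-related organelles, read 5.43, 4.73 and 4.76 in TFEB KO and 4.56, 4.72 and 4.39 in WT muscle. The TFEB KO arrays were all higher, but TFEB KO 2 and WT 2 were nearly equal and TFEB KO 1 stood above the rest. The log2 fold change was 0.42 (SE 0.19, adjusted p = 0.306), and 0.19 without TFEB KO 1. The summed macrophage level was 13.57 on TFEB KO 1, 12.92 and 12.89 on the other TFEB KO arrays and 11.45 to 12.22 on the WT arrays. TFEB KO 1 was also highest for fibroblast markers (14.86, against 14.18 and 14.19 on the other TFEB KO arrays and 14.13 to 14.47 in WT) and adipocyte markers (14.69, against 14.13 and 14.27 on the other TFEB KO arrays and 14.31 to 14.42 in WT). The part of these cells in the value of Rab32 was not tested. Rab38, the closest relative of Rab32, was at 0.04 (SE 0.10). Rab27a and Rab27b, which dock granules at the plasma membrane, were at 0.19 and 0.26, and Rab37 was at -0.12, all with overlapping groups.

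The 4 Rab genes of carriers to the plasma membrane had a median of 0.14 on the brightest probe sets, the highest of the compartments, with 3 genes above 0. The median was -0.02 when the probe sets of each gene were averaged and 0.01 with the probe set of smallest p, so it has no settled direction. Rab10 brings GLUT4 vesicles to the surface in fat cells. Its brightest probe set had 12.26, 12.35 and 12.29 in TFEB KO and 12.08, 12.30 and 12.24 in WT muscle (log2 fold change 0.10, SE 0.10). The other probe sets of Rab10 were at -0.08 and -0.03. On the former, the TFEB KO arrays (11.86, 11.82 and 11.82) all lay below the WT arrays (11.88, 11.87 and 12). Rab13, a GTPase of cell junctions and of GLUT4 traffic in muscle cells, read 7.88, 7.75 and 7.71 in TFEB KO and 7.45, 7.68 and 7.63 in WT. All TFEB KO arrays were higher, by 1.14-fold (log2 fold change 0.19, SE 0.10, adjusted p = 0.393).

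Rab8a takes part in GLUT4 traffic in muscle cells and was at -0.07 (SE 0.11). Its relative Rab8b gave contradictory readings. On the brightest probe set, Rab8b had 9.19, 8.57 and 8.58 in TFEB KO and 8.49, 8.52 and 8.16 in WT muscle, so that all TFEB KO arrays were higher (log2 fold change 0.39, SE 0.18, adjusted p = 0.326). On the dimmer probe set it had 5.18, 5.32 and 4.97 in TFEB KO and 5.44, 5.50 and 5.90 in WT, so that all TFEB KO arrays were lower (log2 fold change -0.45, SE 0.15, adjusted p = 0.166). The mean of that probe set was below the 40th percentile of brightness. Without TFEB KO 1 the brightest probe set was at 0.18. No direction can be given for Rab8b.

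**Figure D3:**
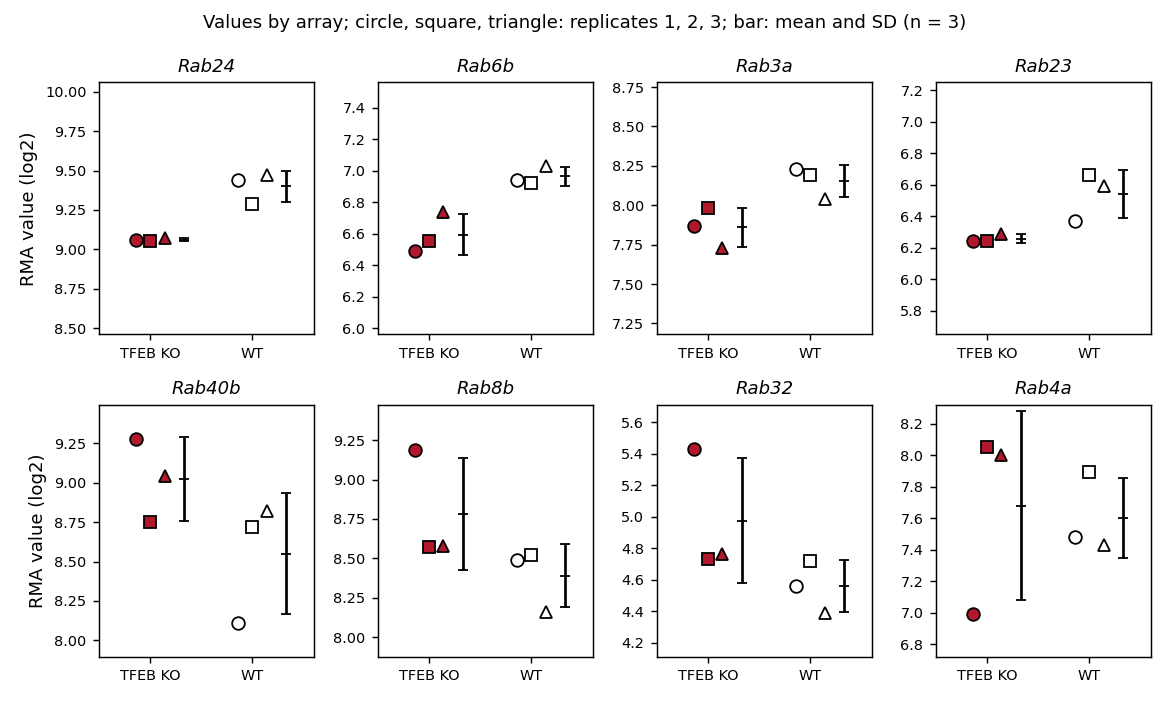
RMA values (log2, vertical axis, the same span in each panel) of 8 Rab genes on the 3 TFEB KO arrays (filled) and the 3 WT arrays (open), with the mean and SD (n = 3) at the right of each group. Rab24, Rab6b, Rab3a and Rab23 are lower on all TFEB KO arrays, Rab40b overlaps, and TFEB KO 1 stands apart from the other TFEB KO arrays for Rab8b, Rab32 and Rab4a.

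The 4 Rab genes outside these compartments held the highest log2 fold change of any Rab probe set and, on a dimmer probe set, also the lowest. Rab23, a GTPase of the primary cilium that restrains Hedgehog signaling, read 6.24, 6.24 and 6.29 in TFEB KO and 6.37, 6.66 and 6.59 in WT muscle. All TFEB KO arrays were lower, by 1.22-fold (log2 fold change -0.28, SE 0.10, adjusted p = 0.205). The dimmer probe set of Rab23 did the same, with 4.85, 4.84 and 4.84 in TFEB KO and 5.41, 4.97 and 5.13 in WT (log2 fold change -0.33, adjusted p = 0.218), at a mean below the 40th percentile.

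Rab40b belongs to a subfamily of Rabs that join ubiquitin ligase complexes. It read 9.28, 8.75 and 9.04 on the TFEB KO arrays and 8.11, 8.72 and 8.82 on the WT arrays. Although it had the highest Rab log2 fold change (0.47, SE 0.20, 95% interval 0.00 to 0.94, adjusted p = 0.287), the groups overlapped, because WT 3 was above TFEB KO 2, and WT 1 was far below the rest. Without WT 1 it was 0.25, and on its dimmer probe set 0.26. Rab40c of the same subfamily was at -0.08 on its brightest probe set (7.49, 7.79 and 7.68 in TFEB KO and 7.74, 7.71 and 7.75 in WT). Its dimmer probe set read 5.41, 5.18 and 5.29 in TFEB KO and 5.67, 5.84 and 5.77 in WT. That probe set was 1.39-fold lower (log2 fold change -0.47, SE 0.10) with an adjusted p of 0.0607, the smallest of all 95 Rab probe sets, at a brightness below the 40th percentile. Rab28, another ciliary Rab, was at 0.17 (SE 0.10) with overlapping groups.

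Several probe sets allowed 27 Rab genes to be read more than once, up to 7 times for Rab2a. All probe sets of a gene had the same sign for 14 of them, 8 below and 6 above 0, and both signs occurred for 13. Of the 95 Rab probe sets, 19 separated the groups (23% of all probe sets did), and 0 passed the test (1.6% of all probe sets). Rab23 and Rab24, among the genes nearest to a call, were lower on both of their probe sets without overlap, and so was Rab18. The dimmer probe set of Rab23 was below the 40th percentile of brightness. Rab6b and Rab3a had 1 probe set each, so probe sets could not be compared for them.

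**Figure D4:**
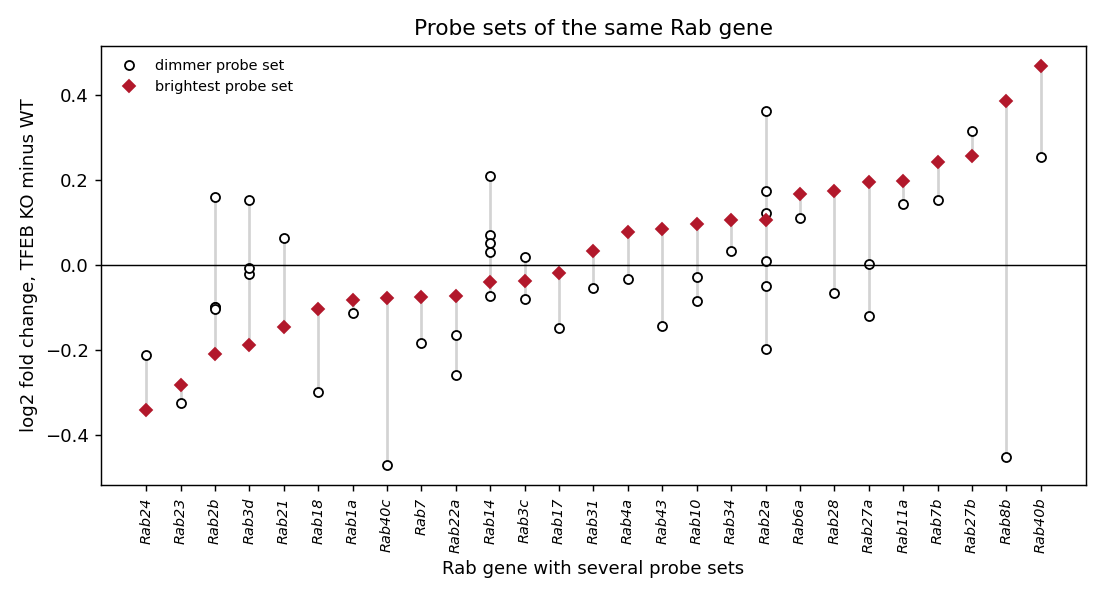
Log2 fold change of TFEB KO over WT (vertical axis) for every probe set of the 27 Rab genes with several probe sets, with the brightest probe set as a diamond and dimmer ones as circles joined by a line. The probe sets of Rab24 and Rab23 lie close together below 0, while those of Rab8b lie at 0.39 and -0.45.

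The proteins that load, activate and use Rabs were read from the same arrays, and 83 of 140 genes listed for these roles were measured. Of these, 0 were called higher and 0 lower (1.57% of all genes were called), 14 were separated upward and 6 downward (24.1%, against 23.8% of all genes), and their median log2 fold change was -0.001. Newly made Rabs receive their lipid anchor from geranylgeranyl transferase, and this group held the regulator with the smallest p. Rabggta, its alpha subunit, read 7.33, 7.38 and 7.51 in TFEB KO and 7.79, 7.80 and 7.95 in WT muscle (log2 fold change -0.44, SE 0.10, adjusted p = 0.0664). Rabggtb, the beta subunit, had the opposite sign, with 9.80, 9.85 and 9.81 in TFEB KO and 9.50, 9.72 and 9.50 in WT (0.25, SE 0.10, adjusted p = 0.238). The escort protein Chm, which presents Rabs to the transferase, was at 0.31 (adjusted p = 0.196), and Gdi2, which extracts Rabs from membranes, at 0.26 (adjusted p = 0.207). The TFEB KO arrays of these 4 genes lay on 1 side of the WT arrays, below for Rabggta and above for the others. The remaining measured genes of this list, Chml at -0.16 and Rabac1 at -0.10, overlapped between the groups. The list had 3 genes above and 3 below 0.

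Rab GTPase-activating proteins switch Rabs off. Tbc1d1, which acts on the Rabs of GLUT4 vesicles in muscle, read 7.99, 8.73 and 8.63 in TFEB KO and 7.83, 7.86 and 7.42 in WT muscle. It was 0.75 higher on the log2 scale (SE 0.21, adjusted p = 0.117) and the only member of its list beyond 1.5-fold. TFEB KO 1 was close to WT, and without that array the log2 fold change was 0.98 and passed the test (adjusted p = 0.0302). Tbc1d20, which acts on Rab1 and Rab18, was at 0.32 (adjusted p = 0.189). The Rabs to which these proteins are tied had log2 fold changes of -0.08 for Rab1a, -0.10 for Rab18, -0.07 for Rab8a, 0.10 for Rab10, 0.19 for Rab13 and -0.04 for Rab14, and none of them passed the test. Of these, Rab18 lay lower on all TFEB KO arrays on both of its probe sets, and Rab13 lay higher. Rab10 lay lower on all TFEB KO arrays on a dimmer probe set (log2 fold change -0.08), opposite in sign to its brightest.

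Among exchange factors, which switch Rabs on, the smallest p values belonged to Rin2, an activator of Rab5 (log2 fold change 0.49, adjusted p = 0.191), and Dennd4b of the DENN family (-0.29, adjusted p = 0.223). Among effectors, Rilpl2, which binds Rabs at the cilium, read 7.49, 7.52 and 7.54 in TFEB KO and 7.18, 6.90 and 7.18 in WT muscle (0.43, SE 0.10, adjusted p = 0.0877), and the Golgi protein Gcc1 was at 0.28 (adjusted p = 0.232). The tethers HOPS and CORVET join endosomes and lysosomes that carry Rab7 and Rab5. The list for these tethers, which also held their relatives Vps33b and Vipas39, had 7 measured genes with a median log2 fold change of -0.004. The smallest p in the list belonged to Vps33b (-0.23, adjusted p = 0.287), followed by the subunit Vps16 (-0.14, adjusted p = 0.527).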

How the data were processed

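Muscle RNA of 3 TFEB KO and 3 WT mice was hybridised to an array for each mouse, and replicates are biological by their labels. The authors deposited log2 values per probe set, made with RMA through the package affy. Versions were not given in the sources used here. Arrays give no depth, and their number limits the precision.

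Of 22690 probe sets, 64 controls were left out and 22626 tested. Of these, 20380 named 1 gene by the platform annotation, 691 named several and 1555 none. The 53 Rab symbols were equal to those of RefSeq by Entrez ID. TFEB KO and WT were compared with limma 3.58.1 (lmFit, eBayes) in R 4.3.3, two-sided, on all 6 arrays, with Benjamini-Hochberg adjustment and a threshold of 0.05. On simulated data (5 runs of 22626 probe sets, 200 changed in each) the share recovered was 15.7% where the simulated log2 change was 0.5, 87.4% where it was 1 and 99.4% where it was 2. False calls made up 4.14%. Tables and figures were made with Python 3.11.15, pandas 2.3.3, NumPy 2.4.6, SciPy 1.17.1 and matplotlib 3.10.9.

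The Rab genes, the compartments, the lists and the tests were chosen with earlier results of these data known. The text names Rab genes with an unadjusted p under 0.05 and no overlap, the best known of each compartment, Tfeb, and the 2 regulators with the smallest p of each list. Other Rab genes are given for completeness, and Rab8b, Rab40b, Rab40c, Rab7b, Rab18, Rabggtb and Gdi2 were described after their values were seen. Alternatives covered normalization, the filter on dim probe sets, moderation, array weights, a replicate block, Student's t-test, control probe sets, the choice of probe set, a minimum fold and each array left out. Promoter sequences are those of RefSeq (GRCm38.p6). The planned comparison of Rab proteins was not run, as protein sequences were not used here.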

Additional observations from a re-analysis of the deposited data

How the results depend on the processing

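The count of Rab genes past the test was 0 higher and 0 lower under 11 of the 12 other settings and whenever an array was left out. The exception was Student's t-test without adjustment, with 0 higher and 7 lower of the 50 Rab genes (Rab3a, Rab6b, Rab11b, Rab12, Rab18, Rab23 and Rab24). It also passed 3 of the 45 dimmer Rab probe sets, and 8 higher and 2 lower of the 83 regulators. Of all 22626 probe sets, 1338 were higher and 1944 lower. Over both directions, the shares of Rab genes and of regulators were not above that of all probe sets. In the lower direction alone, the Rab share was larger. The Rab genes and regulators were read from brightest probe sets only, unlike the full set, so these shares are not like for like. After adjustment the same t-test called 0 higher and 1 lower probe set, and Tfeb did not pass (log2 fold change -1.58, adjusted p = 0.132). The paper's main text lists this test for its data in general and names none for the arrays. The counts are therefore not the outcome of the paper's own array analysis. Limma called 170 probe sets higher and 191 lower. The lower count was 296 with array weights and 127 with a minimum of 1.5-fold. Array weights brought the dimmer probe set of Rab40c past the test (1 dimmer probe set, log2 fold change -0.49, adjusted p = 0.0429), and the mean of all probe sets tested over genes did so for Rabggta (1 lower regulator, adjusted p = 0.0483). The median Rab log2 fold change was -0.0231 with array weights and -0.0596 with the probe set of smallest p.

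Same-numbered arrays of the groups are not described as pairs, and their deviations correlated at 0.09, 0.05 and 0.27. These values cannot settle whether such arrays shared a batch, which the labels do not give. With the number as a replicate block, 124 probe sets were called lower, and Rab calls stayed at 0.

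Without single arrays, 17 to 235 probe sets were higher and 4 to 203 lower, 0 Rab genes passed (0 to 0 in each direction, and 0 to 0 dimmer probe sets), 0 to 1 regulators were higher and 0 to 0 lower, the median Rab value was -0.0356 to -0.0026, and Tfeb was -1.66 to -1.46. Rab genes without overlap were 4 to 10 higher and 8 to 13 lower, a share of 24% to 46% against 30.4% to 36.9% of all genes, since fewer arrays overlap less.

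Of 26 Rab genes followed through 465 values, 17 kept their sign throughout, and 17 values were reversed. Many of the values could not reverse. The dim filter, moderation, replicate block, Student's t-test, control probe sets and minimum fold left each log2 fold change as it was. The choice of probe set changed nothing for a gene with a single probe set. The count of reversals therefore does not measure how stable the signs were. By the gene mean, Rab10 was -0.0055, Rab14 0.0418 and Rab8b -0.0331, and by the probe set of smallest p, Rab14 was 0.21 and Rab8b -0.45. Rab5c was -0.0024 after a shift to the same 75th percentile and -0.027 with array weights. Without single arrays, Rab38 was between -0.0237 and 0.132, Rab5b between -0.0829 and 0.0734, Rab5c between -0.0943 and 0.0739, Rab4a between -0.1057 and 0.424, Rab7 between -0.1747 and 0.0411 and Rab8a between -0.1716 and 0.0225. The cause of these shifts was not tested.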
